A study of Mus musculus with 24 samples.

Results

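The 10 genes described here are the imprinted growth genes *Igf2*, *H19*, *Igf2r*, *Dlk1*, *Meg3*, *Peg3*, *Plagl1*, *Ndn*, *Mest* and *Grb10*, chosen by name from the 54658 genes of the table. They were followed in 24 libraries from the developing cerebral cortex of mice lacking *Cep135*, a gene for a centriole assembly protein, and of their controls. Dissected E11.5 cortices came from 3 Cep135 (-/-) mutant and 3 Cep135 (+/+) control embryos, and E14.5 cortices from 3 mutant and 3 control embryos. The E14.5 embryos share a sample code, and the E11.5 embryos carry other codes, each with both genotypes. Litter was read here from these codes, by which the E14.5 embryos are a single litter. Cells of the same 6 E14.5 embryos were also grown as neurospheres, floating clusters of neural progenitors kept in EGF and FGF2, and were collected after 12 h and 24 h. All embryos were on a C57BL/6J background from matings of heterozygotes, and the mutant allele, a short deletion in the second exon, was germline, so every tissue of the embryo carried it.

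Imprinted genes are transcribed mainly from the copy inherited from one parent. Several paternally expressed genes, among them *Igf2*, *Dlk1*, *Peg3*, *Plagl1* and *Mest*, are known for promoting fetal growth, and several maternally expressed ones, among them *H19*, *Igf2r* and *Grb10*, for restraining it. Many are abundant in embryonic tissues and decline as tissues mature, and a number of them lie together in shared domains such as *Igf2* with *H19* and *Dlk1* with *Meg3*. Libraries of this kind sum both parental copies, so the values below carry no information on which allele was read.

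In GRCm38, *Peg3* (7:6703892-6730431), *Ndn* (7:62346569-62350262), *H19* (7:142575529-142578143) and *Igf2* (7:142650766-142666816) are on chromosome 7, and *Dlk1* (12:109452823-109463336) and *Meg3* (12:109541001-109571726) on chromosome 12. The others are *Mest* (6:30723547-30748465), *Plagl1* (10:13060504-13131694), *Grb10* (11:11930508-12038683) and *Igf2r* (17:12682406-12769664). *H19* and *Meg3* are long noncoding RNAs and the other 8 code for proteins.

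*Grb10* was the member nearest to a genotype difference, and 2 of its annotated start regions are therefore shown. The gene has alternative promoters, an upstream one known for maternal expression in most tissues and downstream ones known for paternal expression in neurons. Which of these promoters the 2 starts below belong to was not tested. The 250 bases before each of 2 RefSeq starts (GRCm38.p6, minus strand) follow, 5′ to 3′, with CG dinucleotides, the sites of DNA methylation, in capitals. The upper one is chr11:12037421-12037670 and the lower one chr11:12027972-12028221.
Grb10 upstream start: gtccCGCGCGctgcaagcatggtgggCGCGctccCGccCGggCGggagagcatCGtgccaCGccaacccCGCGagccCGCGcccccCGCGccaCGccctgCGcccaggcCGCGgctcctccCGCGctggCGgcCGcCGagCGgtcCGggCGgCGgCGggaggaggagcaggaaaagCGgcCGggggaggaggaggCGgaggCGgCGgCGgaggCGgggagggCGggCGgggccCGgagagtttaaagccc
Grb10 downstream start: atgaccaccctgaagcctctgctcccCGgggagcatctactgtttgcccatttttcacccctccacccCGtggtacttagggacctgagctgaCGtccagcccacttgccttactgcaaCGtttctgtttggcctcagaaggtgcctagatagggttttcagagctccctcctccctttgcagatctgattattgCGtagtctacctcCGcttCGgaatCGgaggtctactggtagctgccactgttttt
The upstream stretch holds 40 CG dinucleotides, more than 98.7% of the 32851 windows of this length in the same table, whose median is 6. The downstream stretch holds 8. Reads of these libraries come from the 3′ ends of transcripts, which the starts share, so the *Grb10* counts do not tell which start was used.

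Values are normalized read counts, reads per gene divided by 1 size factor per library, and levels are compared only between libraries for the same gene. The libraries held 4732781 to 11645213 reads. *Cep135* itself lay between 171 and 375 normalized reads in every library with overlapping groups, and since the deletion is far from the 3′ end these reads do not check the labels. The 5 dorsal telencephalon markers summed to 2302 to 4964 normalized reads in every library, so the labelled tissue was present throughout. Several libraries also carried transcripts of other tissues. The summed level of 13 liver markers was above 100 in E11.5 mutants A and C and in E14.5 controls 4 and 5, and at most 15.6 in the other cortices. In culture the liver sum exceeded 100 in all libraries except 12 h control 3 and the 3 controls at 24 h. Because these are bulk samples, fewer cells of a type and less RNA per cell cannot be told apart.

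The 2 *Igf2* domain genes gave very different readouts. *Igf2*, the fetal insulin-like growth factor, reached at most 24.5 normalized reads (E11.5 mutant A) and was listed at 0 in 6 of 24 libraries. It was not taken here as the level of the transcript. In GENCODE vM21 the coding gene *Gm49394* (7:142650769-142669942) lies on the same strand and shares 62.8% of the 5723 exonic bases of *Igf2*, and 997 of its last 1000, where 3′ reads fall. *Gm49394* was listed at 0 in all 24 libraries. Counting tools commonly leave out reads that lie on 2 genes, and whether that was done here was not stated. Whether the overlap lowered the *Igf2* counts was not tested. *Igf2* passed the filter of a mean of 10 only in the comparisons that included E11.5 cortices, and its values are given without further reading.

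**Figure D1:**
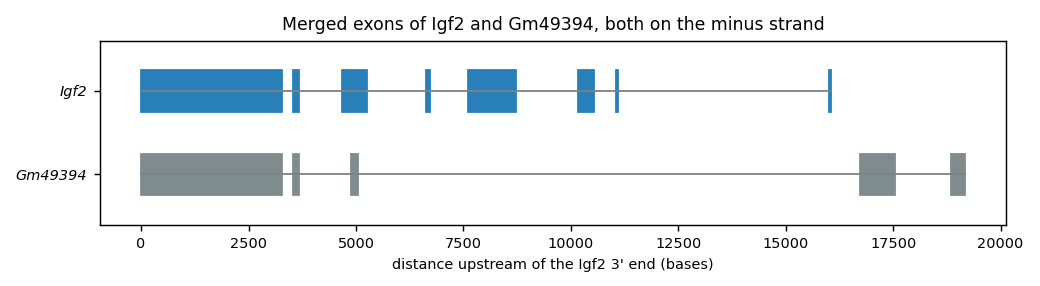
Merged exons of *Igf2* and *Gm49394* as boxes, by distance in bases upstream of the *Igf2* 3′ end. Nearly all of the last 1000 exonic bases of *Igf2* (997) are also exon of *Gm49394* on the same strand.

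All 10 members passed the threshold between E11.5 and E14.5 cortices. *Igf2* passed the filter only through its E11.5 values (mean 15.3, beside 6.86 at E14.5), so its call is not read as a result. *H19*, *Igf2*, *Igf2r*, *Dlk1*, *Peg3*, *Plagl1*, *Mest* and *Grb10* were lower at E14.5, and *Meg3* and *Ndn* were higher. Among all 13650 genes tested 53.1% passed the same threshold (adjusted p under 0.05, limma), 29.3% lower and 23.8% higher. The median log2 fold change of the members, *Igf2* included, was -1.01, beside -0.08 over all genes tested. By their sample codes the E14.5 embryos were 1 litter and the E11.5 embryos others, so age and litter cannot be told apart.

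*Dlk1*, a Notch-related membrane protein of precursor cells, had the largest difference. At E11.5 it stood at 1200, 1183 and 1164 normalized reads in mutants A, B and C, while controls D, E and F had 1715, 690 and 1296. The E14.5 values were 209, 282 and 204 in mutants 1, 2 and 6, while controls 3, 4 and 5 had 208, 213 and 144. Every E14.5 library was below every E11.5 library, with a log2 fold change of -2.50 (SE 0.18, adjusted p = 1.15e-08, limma). The lowest E11.5 library was control E, and no genotype separation was visible at either age.

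*Mest*, a paternally expressed hydrolase-like gene abundant in mesoderm and embryonic brain, showed the same separation. E11.5 mutants held 2752, 1877 and 2196 normalized reads and E11.5 controls 2116, 1957 and 1939. E14.5 mutants held 568, 586 and 547 and E14.5 controls 525, 524 and 372. The log2 fold change was -2.04 (SE 0.10, adjusted p = 3.41e-10, limma).

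*H19*, the noncoding RNA that shares enhancers with *Igf2*, fell from 10243 ± 2005 normalized reads (SD, n = 6) at E11.5 to 3453 ± 1088 at E14.5. The E11.5 mutants held 11369, 10669 and 11324 and the E11.5 controls 10080, 11695 and 6325. The E14.5 mutants held 4588, 5066 and 2827 and the E14.5 controls 2689, 2519 and 3031. The ages did not overlap, and the log2 fold change was -1.59 (SE 0.15, adjusted p = 3.29e-07, limma). E11.5 control F was the lowest of its age, and it also had the lowest summed level of 12 meninges and mesenchyme markers, 2594 beside 4605 to 9239 in the other E11.5 cortices.

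*Grb10*, an adaptor that binds insulin and IGF receptors and limits their signaling, was at 2528, 1721 and 2112 normalized reads in E11.5 mutants and 2002, 1952 and 1726 in E11.5 controls. It was at 777, 941 and 920 in E14.5 mutants and 721, 755 and 731 in E14.5 controls. The log2 fold change with age was -1.31 (SE 0.09, adjusted p = 1.17e-08, limma). *Plagl1*, a zinc finger transcription factor of an imprinted growth network, spanned 855 to 1485 at E11.5 and 382 to 849 at E14.5, a log2 fold change of -1.02 (SE 0.20, adjusted p = 0.000550). Its E14.5 values split by embryo rather than genotype, with mutant 6 at 800 and control 5 at 849 above 382 to 466 in the other 4.

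The zinc finger gene *Peg3* spanned 1695 to 2053 normalized reads at E11.5 and 923 to 1443 at E14.5, a log2 fold change of -0.68 (SE 0.09, adjusted p = 1.50e-05, limma). *Igf2r*, the receptor that takes IGF2 to lysosomes, spanned 378 to 479 and 232 to 325, with a log2 fold change of -0.67 (SE 0.10, adjusted p = 2.57e-05). *Igf2* itself gave a log2 fold change of -0.99 (SE 0.30, adjusted p = 0.0100), under the limit stated above. None of the other members that fell had overlapping ages.

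The members that rose were *Ndn*, a MAGE family protein of postmitotic neurons, and *Meg3*. *Ndn* held 607, 740 and 655 normalized reads in E11.5 mutants and 719, 955 and 912 in E11.5 controls. It held 1741, 1643 and 1613 in E14.5 mutants and 1552, 1479 and 1629 in E14.5 controls, a log2 fold change of 1.09 (SE 0.10, adjusted p = 2.46e-07, limma). Neuron markers rose too: all 6 passed the threshold, with a median log2 fold change of 2.13. *Meg3* spanned 3430 to 7822 at E11.5 and 5837 to 12494 at E14.5, so its ages overlapped, and the log2 fold change was 0.53 (SE 0.20, adjusted p = 0.0320). The *Meg3* call was lost when any of 6 of the 12 libraries was left out (E11.5 mutants A and C, E14.5 mutants 1, 2 and 6, or E14.5 control 5), with adjusted p from 0.0535 to 0.0833, while the log2 fold change stayed between 0.33 and 0.53 in those 6 runs.

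*Dlk1* and *Meg3* are neighbours in 1 imprinted domain, and their differences with age had opposite signs. The noncoding RNAs further along this domain were *Rian*, with a log2 fold change of -0.50 (SE 0.13, adjusted p = 0.00416, limma), and *Mirg*, with -0.98 (SE 0.11, adjusted p = 2.88e-06). *Rian* and *Mirg* belong to the list of other imprinted genes and were singled out after their values were seen, because they share the *Meg3* locus.

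The meninges and mesenchyme sum moved with age as well, from 2594 to 9239 at E11.5 to 1543 to 2654 at E14.5, and 10 of its 12 markers were called lower and 1 higher. With this sum as a term, a choice made after seeing the data, 7 of 10 members were called and 2483 of all genes. *H19* (-1.14), *Dlk1* (-2.83), *Mest* (-1.94), *Grb10* (-0.98), *Peg3* (-0.66), *Igf2r* (-0.64) and *Ndn* (0.88) kept their call, whereas *Plagl1* (-0.55, adjusted p = 0.375) and *Igf2* (-0.28, adjusted p = 0.782) did not, and *Meg3* was at -0.01 (adjusted p = 0.992). Without the 4 cortices that carried liver transcripts, also a choice made after seeing the data, 8 members were called. *Meg3* gave 0.30 there (adjusted p = 0.127), and *Igf2* did not pass the filter. Other marker lists also moved with age. Of 6 apical progenitor markers 5 were called lower and 1 higher, of 9 erythroid markers 5 lower and 3 higher, and of 10 endothelium markers 6 lower and 1 higher. Their median log2 fold changes were -0.68, -0.61 and -0.37, and those of mural cell and microglia markers were 0.63 and 0.57. The part of these cells was not tested.

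**Figure D2:**
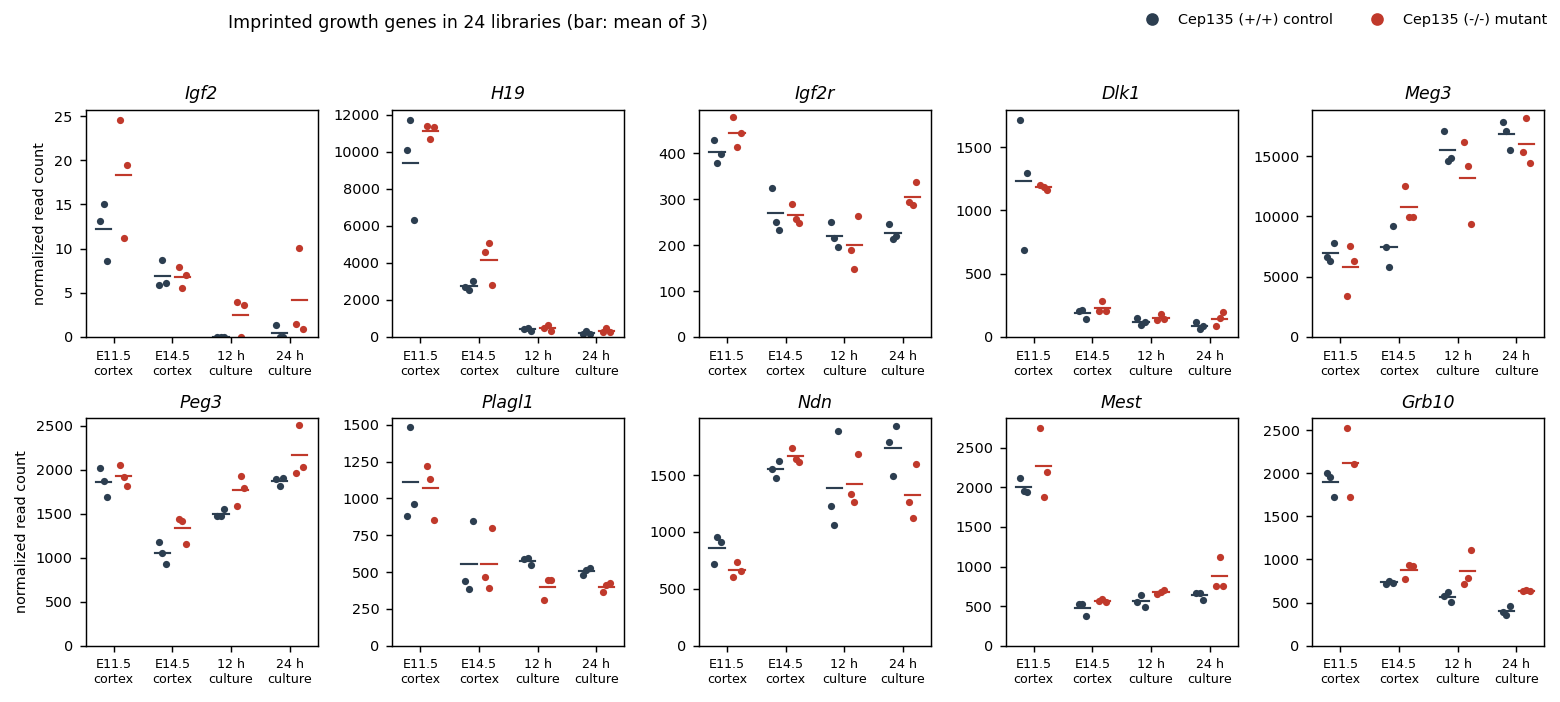
Normalized read counts of the 10 members on linear axes from 0, with 1 point per library and a bar at the mean of 3. *Dlk1*, *Mest*, *Grb10* and *H19* are highest in all E11.5 cortices, and *Grb10* in mutants lies above controls in the E14.5 cortices and both cultures.

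Among 34 other imprinted genes, 29 were tested, 11 were higher and 7 lower at E14.5, and their median log2 fold change was 0.14. The higher ones included *Dcn*, an extracellular matrix proteoglycan (1.77), *Usp29* (1.14), which neighbours *Peg3*, and *Snrpn* (1.11), a neuronal splicing gene of the domain that holds *Ndn*. The lower ones included *Peg12* (-1.65), *Peg10* (-1.27) and the cell cycle inhibitor *Cdkn1c* (-1.01). Of 19 genes of the IGF axis, 18 were tested, 3 were higher and 10 lower. The RNA-binding proteins *Igf2bp1* (-2.07) and *Igf2bp3* (-1.53), named for binding *Igf2* mRNA, and the binding protein *Igfbp5* (-1.44) were lower, and the protease *Htra1* (3.51), the insulin receptor *Insr* (0.45) and *Igfbp7* (0.62) were higher.

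Culture moved fewer members. Between E14.5 cortex and 12 h neurospheres of the same embryos, 4 of 9 members tested were called, *H19* and *Dlk1* lower and *Meg3* and *Peg3* higher. Over all 13601 genes tested 30.2% were called, 16.1% lower and 14.1% higher. The median log2 fold change was -0.21 for the members and -0.06 for all genes tested.

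*H19* had the 17th smallest p of all genes. It fell to 487, 648 and 326 normalized reads in the 12 h mutants and to 444, 490 and 306 in the 12 h controls, below the E14.5 cortex in each of 6 embryos. The log2 fold change was -2.93 (SE 0.18, adjusted p = 1.33e-08, limma), and without the 2 E14.5 cortices that carried liver transcripts it was -2.98. These 2 cortices held 2519 and 3031 normalized *H19* reads and the other control 2689. Meninges, endothelium and microglia markers fell in the same step, whereas 8 of 9 erythroid markers were called higher (median log2 fold change 1.31). All 9 tested liver markers also had positive differences (median 2.43), with 0 called by limma. All 9 tested meninges and mesenchyme markers, all 10 endothelium markers and all 7 tested microglia markers were called lower, with median log2 fold changes of -3.67, -4.23 and -4.52. Many of these markers passed the filter only through the cortices, so the counts of calls are not read as a result. In the 12 h libraries alone, 4 meninges and mesenchyme and 5 endothelium markers passed it. Microglia markers summed there to at most 16.6 normalized reads in mutants and 44 in controls. The meninges and mesenchyme sum was 1543 to 2654 in the cortices and 165 to 314 at 12 h, without overlap. With this sum as a term, a choice made after seeing the data, 0 genes were called by limma (832 at an unadjusted p under 0.05), and *H19* was at -4.85 (adjusted p = 0.793). The part of those cells in the fall of *H19* was not tested.

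**Figure D3:**
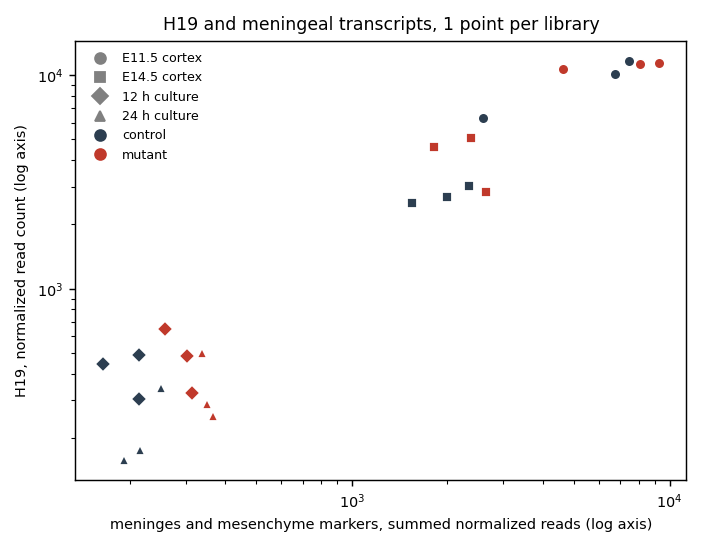
*H19* against the summed meninges and mesenchyme markers in each of 24 libraries, both in normalized reads on log axes, with symbols for stage and color for genotype. *H19* is higher in every E11.5 cortex than in any other library, the marker sums of the 2 ages overlap, and the 12 cultures sit at 165 to 365 summed marker reads with *H19* at 158 to 648.

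*Dlk1* gave 137, 178 and 141 normalized reads in 12 h mutants and 149, 91.6 and 118 in 12 h controls. It was lower than in the cortex of the same embryo in 6 of 6, with a log2 fold change of -0.63 (SE 0.16, adjusted p = 0.00872, limma). Its domain neighbour *Meg3* gave 16166, 14155 and 9347 in mutants and 17093, 14618 and 14851 in controls, higher in 5 of 6 embryos (0.67, SE 0.17, adjusted p = 0.00815). Without the 2 E14.5 cortices that carried liver transcripts *Meg3* missed the threshold (0.53, adjusted p = 0.0558). *Mirg* (0.93, SE 0.16, adjusted p = 0.000361) and *Rian* (0.36, SE 0.11, adjusted p = 0.0227) were also higher at 12 h.

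*Peg3* rose in 6 of 6 embryos, to 1583, 1930 and 1791 normalized reads in mutants and 1469, 1469 and 1559 in controls, with a log2 fold change of 0.46 (SE 0.09, adjusted p = 0.00174, limma). *Mest* was also higher in 6 of 6 embryos but missed the threshold (0.26, SE 0.11, adjusted p = 0.0841). *Igf2r* (-0.36, adjusted p = 0.0792), *Ndn* (-0.22, adjusted p = 0.191), *Grb10* (-0.21, adjusted p = 0.195) and *Plagl1* (-0.14, adjusted p = 0.651) were not called. Of the other imprinted genes 8 of 28 tested were higher and 2 lower, among them *Peg10* (1.43), *Inpp5f* (0.83) and *Mirg* higher, and *Dcn* (-3.65) and *Ddc* (-2.38) lower. Of the IGF axis 4 of 18 were higher, including the signaling adaptor *Irs2* (1.01), *Insr* (0.66) and *Gigyf2* (0.50), a partner of *Grb10*, and 5 were lower, including *Igfbp4* (-1.50), *Igfbp5* (-2.00) and *Igfbp7* (-4.90).

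From 12 h to 24 h, 0 of 9 members were called by limma, although 5 had an unadjusted p under 0.05. Over 13359 genes 0.292% were called, 0.15% higher and 0.142% lower. *H19* was lower in 6 of 6 embryos, with 289, 498 and 252 normalized reads in mutants and 158, 342 and 176 in controls, a log2 fold change of -0.71 (SE 0.22, adjusted p = 0.243). With embryo as a block, the fit that uses the pairing, *H19* was called (adjusted p = 0.0133). *Grb10* was lower in 6 of 6 embryos (-0.45, SE 0.12, adjusted p = 0.123) and was called with DESeq2 on whole reads (-0.48, adjusted p = 0.0194). *Peg3* (0.30, SE 0.08, adjusted p = 0.167) and *Mest* (0.26, SE 0.11, adjusted p = 0.476) were each higher in 6 of 6. Of the 27 other imprinted genes and 16 genes of the IGF axis tested, 0 were called by limma, with 4 and 2 at an unadjusted p under 0.05.

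**Figure D4:**
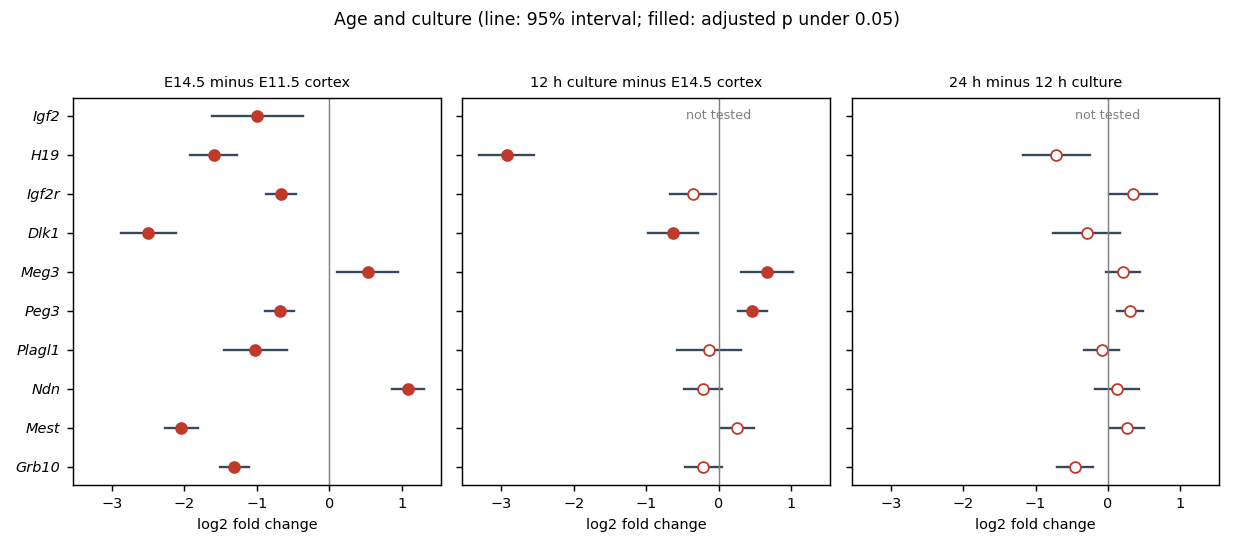
Log2 fold changes of the members with age, from cortex to 12 h culture and from 12 h to 24 h. Points are limma estimates, lines 95% intervals and filled points adjusted p under 0.05. Filled are all 10 members with age (*Igf2* passing the filter only through E11.5), 4 at 12 h and 0 at 24 h.

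Loss of *Cep135* did not give a called difference for any member in any of 5 genotype comparisons by limma. With so few libraries per group, a missing call does not mean that there was no difference. The share of all genes called was 0.0149% in E11.5 cortices (13406 genes), 0.0736% in E14.5 cortices (13583), 0% in 12 h cultures (13389), 0.271% in 24 h cultures (13300) and 0.139% when the 12 cortices were fitted jointly with an age term (13650). In the 3 sample types of the E14.5 litter edgeR on whole reads also called 0 members, and DESeq2 called *Grb10* at 24 h. Members with an unadjusted p under 0.05 numbered 1 of 10 at E11.5, 3 of 9 at E14.5, 2 of 9 at 12 h, 6 of 9 at 24 h and 3 of 10 in the 12 cortices. The shares of all genes tested at that unadjusted p were 7.39%, 9.10%, 4.85%, 10.6% and 8.71%. At 12 h, where no gene was called by limma, 650 genes had an unadjusted p under 0.05 and DESeq2 called 9.

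*Grb10* came nearest to a call. Its 24 h values were 633, 648 and 629 normalized reads in mutants 1, 2 and 6, while controls 3, 4 and 5 had 395, 356 and 459. All 3 mutants were above all 3 controls, with a log2 fold change of 0.67 (SE 0.14, 95% interval 0.36 to 0.97, adjusted p = 0.0714, limma). It was called with no filter on low values (adjusted p = 0.0246) and with DESeq2 (0.67, adjusted p = 0.00484), and its direction held in every alternative. Leaving out any 1 library gave 0.58 to 0.76 with adjusted p from 0.118 to 0.216.

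The same order of the groups was seen in the other samples of this litter. At 12 h *Grb10* was at 711, 780 and 1113 normalized reads in mutants and 571, 624 and 504 in controls (0.59, SE 0.20, adjusted p = 0.913, limma). In the E14.5 cortices the mutants, at 777, 941 and 920, were also above the controls, at 721, 755 and 731 (0.25, SE 0.13, adjusted p = 0.571). The E11.5 groups, from other litters, overlapped (0.15, SE 0.14, 95% interval -0.16 to 0.46). In the 12 cortices the difference was 0.20 (SE 0.09, adjusted p = 0.566), and the exact permutation test within age gave p = 0.065, two-sided, where 0.005 is the smallest possible. These are the same 6 embryos at E14.5, 12 h and 24 h, so they are not independent observations of genotype, and with 3 against 3 the exact test cannot go below 0.1.

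At 24 h, 5 of 9 members did not overlap between genotypes, beside 16.2% of all genes. Besides *Grb10* these were *Igf2r*, *Mest* and *Peg3*, higher in mutants, and *Plagl1*, lower in mutants. *Igf2r* held 293, 286 and 337 normalized reads in mutants and 246, 212 and 220 in controls (0.43, SE 0.16, adjusted p = 0.345, limma). *Mest* held 750, 1120 and 753 in mutants and 662, 667 and 574 in controls (0.44, SE 0.16, adjusted p = 0.337). The growth-promoting *Mest* and the growth-restraining *Igf2r* and *Grb10* thus had the same sign.

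*Plagl1* held 362, 414 and 425 normalized reads in 24 h mutants and 478, 517 and 526 in controls (-0.34, SE 0.14, adjusted p = 0.395, limma). At 12 h it held 307, 448 and 448 in mutants and 590, 598 and 547 in controls (-0.55, SE 0.20, adjusted p = 0.913). No such order was seen in the cortices, where the difference was 0.01 at E14.5 (SE 0.30) and -0.03 at E11.5 (SE 0.20). *Ndn* (-0.40, SE 0.15, adjusted p = 0.339), *H19* (0.64, SE 0.29, adjusted p = 0.442), *Dlk1* (0.66, SE 0.31, adjusted p = 0.477) and *Meg3* (-0.08, SE 0.12, adjusted p = 0.872) overlapped at 24 h.

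At 12 h, 4 of 9 members did not overlap, beside 11% of all genes: *Grb10*, *Mest* and *Peg3* above and *Plagl1* below. At E14.5 there were 3 of 9, beside 13.7%, namely *Grb10*, *Mest* and *Meg3*, all above, and at E11.5 there were 0 of 10, beside 13.3%. *Mest* was thus higher in all mutants than in all controls in each of the 3 sample types of the E14.5 litter, with log2 fold changes of 0.28 (SE 0.16), 0.29 (SE 0.17) and 0.44 (SE 0.16). The 3 sample types come from the same embryos, so this repeated order is not independent evidence of a genotype difference.

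Mutant and control libraries of this litter also differed in other measures. By their transcripts mutants 1 and 2 were female, and mutant 6 and all 3 controls were male, so sex and genotype are partly confounded and a sex term rests on mutant 6 against the controls. With that term *Grb10* gave 0.32 at E14.5, 0.98 at 12 h (adjusted p = 0.0568) and 0.65 at 24 h (adjusted p = 0.247), and *Meg3* -0.73 at 12 h (adjusted p = 0.0685). At 24 h *Mest* gave 0.25, *H19* 0.25, *Dlk1* 1.19, *Peg3* 0.12 and *Ndn* -0.11, none called. *Plagl1* gave 0.61 at E14.5 and -0.37 at 12 h, neither called. At 24 h the share of reads on *Gm42418*, an RNA gene with ribosomal sequence, was 20.5% to 23% in mutants and 6.26% to 13.9% in controls, and mutant libraries held 7903426 to 11645213 reads against 4732781 to 5709443. The meninges and mesenchyme sum was 338 to 365 against 193 to 251 at 24 h and 259 to 314 against 165 to 214 at 12 h. The sum of 13 liver markers was 120 to 422 against 6.25 to 8.43 at 24 h, and overlapped at 12 h (207 to 976 against 1.57 to 1485). The sum of 8 mural cell markers was 64.5 to 83.8 against 11.8 to 47.5 at 24 h and also overlapped at 12 h. The sum of 6 choroid plexus markers was 5042 to 16897 against 880 to 3632 at 24 h and 4773 to 16216 against 1105 to 3817 at 12 h, and the sum of 6 apical progenitor markers at 24 h was 11479 to 12781 against 8993 to 10125. With the meninges sum as a term the *Grb10* difference at 24 h was 0.99 and with the *Gm42418* share 1.04, neither called. Their part in the *Grb10*, *Igf2r*, *Mest* and *Plagl1* values was otherwise not tested.

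For *Meg3* the E14.5 groups stood apart and the other groups did not. E14.5 mutants held 12494, 9920 and 9936 normalized reads and controls 7437, 5837 and 9185, without overlap (0.54, SE 0.18, adjusted p = 0.461, limma). Microglia markers summed to 826 to 999 in these mutants and 440 to 507 in the controls, and neuron markers to 19827 to 23044 and 27468 to 29624; their part was not tested. In E11.5 cortices the difference was -0.33 (SE 0.24), where mutant A stood at 3430 below 6326 to 7822 in the other 5, and without mutant A it was 0.01. At 12 h it was -0.26 (SE 0.18).

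Whether the genotype difference itself differed was tested with interaction terms. Without an embryo block, 0 genes were called by limma for age (0%), for 12 h culture against cortex (0%) and for 24 h against 12 h (0%). With embryo as a block, limma called 3 genes for the term of 12 h culture. Unadjusted p-values under 0.05 numbered 1070, 724 and 318 over all genes. For *Meg3* the term was 0.87 (SE 0.34, adjusted p = 0.620) for age and -0.81 (SE 0.29, adjusted p = 0.793) for 12 h culture. *Ndn*, with genotype differences of -0.36 at E11.5 (SE 0.13, adjusted p = 0.617) and 0.10 at E14.5 (SE 0.12, adjusted p = 0.80), gave 0.47 (SE 0.17, adjusted p = 0.620). All 6 neuron markers had negative differences at E11.5, with a median of -0.26 and 0 called by limma (3 at an unadjusted p under 0.05), and their part was not tested. With whole reads, edgeR and DESeq2 called 1 and 5 genes for the term of 12 h culture, and none of them was a member.

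At E14.5 the *H19* difference moved with 1 embryo and with sex. Mutants 1 and 2, both female, stood at 4588 and 5066, above all 3 controls, and mutant 6 at 2827, male like the 3 controls, was within the control range of 2519 to 3031. The log2 fold change was 0.56 (SE 0.20, adjusted p = 0.498, limma), without mutant 6 it was 0.82 and called (adjusted p = 0.0452), and with sex as a term it was 0.0458 (adjusted p = 0.962). In the 12 cortices the difference was 0.43 (SE 0.15, adjusted p = 0.442), with an exact permutation p of 0.06 within age, and it was 0.19 with sex as a term (adjusted p = 0.999). Mutants 1 and 2 had choroid plexus marker sums of 7805 and 6599 and mutant 6 a sum of 878, beside 3250 to 5435 in the controls, and the part of that tissue was not tested. *Peg3* at E14.5 gave 0.35 (SE 0.14, adjusted p = 0.512) with overlapping groups, and 0.14 with sex as a term (adjusted p = 0.858).

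**Figure D5:**
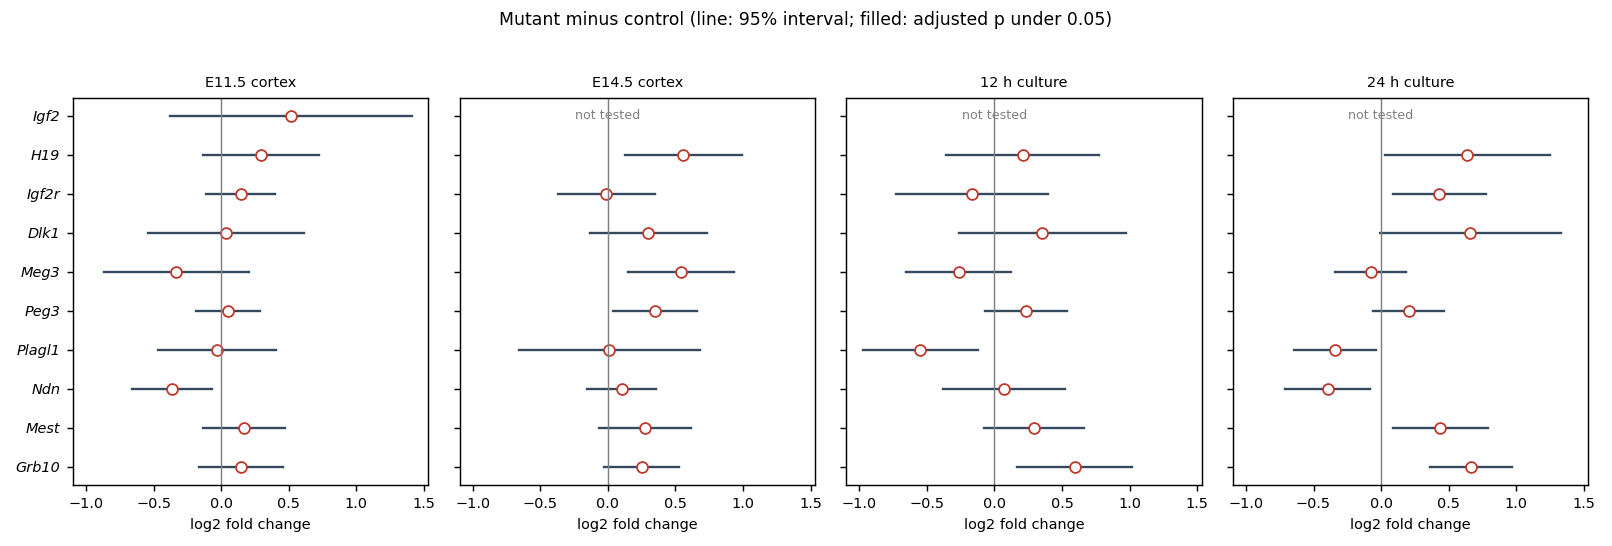
Log2 fold change of mutant over control for each member in E11.5 and E14.5 cortices and 12 h and 24 h cultures. Points are limma estimates and lines 95% intervals, and no point is filled because no adjusted p was under 0.05, with *Grb10* at 24 h (0.67) nearest.

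The wider lists gave no genotype calls. Of the other imprinted genes 28, 28, 27 and 27 were tested at E11.5, E14.5, 12 h and 24 h, 0 were called in each by limma, and 1, 1, 2 and 5 had an unadjusted p under 0.05. Of the IGF axis 17, 18, 16 and 15 were tested, 0 were called, and 1, 3, 2 and 4 had an unadjusted p under 0.05. At 24 h the median log2 fold change was 0.43 for the members, 0.00 for the other imprinted genes, 0.06 for the IGF axis and -0.01 for all genes tested. The members were chosen by name, with earlier results of these data known. With 9 values of both signs, that median only describes these libraries.

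Within groups, each member varied together with different genes. Over the 24 libraries, as deviations from the mean of the group, *H19* was nearest to *Anxa2* (Pearson r = 0.93), *Col8a1* (0.91) and *Iqgap1* (0.89). *Plagl1* was nearest to *Cenpe* (0.92), a mitotic kinesin, and to *Ktn1* and *Eif3a* (0.92 each), and *Meg3* to *Mir124a-1hg* (0.90), the host of a neuronal microRNA, *Tmem87b* (0.89) and *Tle2* (0.87). For *Mest* the nearest were *Tead1* (0.86), *Grpel1* (0.81) and *Ndufs1* (0.81), and for *Ndn* *Scoc* (0.85), *Ncam1* (0.83) and *Arrb2* (0.83). *Grb10* was nearest to *Nup43* (0.81), *Arhgap5* (0.81) and *Colec12* (0.79), *Igf2r* to *Gtf3c3*, *Creb1* and *Myef2* (0.81 each), *Dlk1* to *Mindy1* (0.81), *Klhl13* (0.79) and *Slc33a1* (0.78), and *Peg3* to *Rmdn2* (0.79), *Zic4* (0.76) and *Itfg1* (0.74). Between members, *Grb10* and *Meg3* had the correlation farthest from 0, at -0.78. The points share embryos, library depth and tissue makeup, and each value is the highest of many genes, so these are descriptions.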

How the data were processed

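RNA was measured in 24 libraries, 3 per group. The authors made stranded 3′ libraries, aligned reads to GRCm38 with TopHat2 2.0.10 (Bowtie 1.0.0, SAMtools 0.1.19) and counted them with HTSeq 0.6.1 on GENCODE vM20. The values the authors deposited are signal, gene read counts divided by 1 size factor per library. All 484666 values above 0 were whole multiples of 1 read within 0.001 reads (100%). Depth was 4732781 to 11645213 reads, with no UMIs stated.

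Tests used limma 3.58.1 (R 4.3.3, intensity trend) on log2(value + 1), restricted to genes averaging 10 or more over the compared libraries. P-values were adjusted by Benjamini-Hochberg over all of them, and 0.05 was the threshold. Fold changes of low genes are understated on this scale. Every adjusted p is from limma unless edgeR 4.0.16 or DESeq2 1.42.0 is named. These tools ran on whole reads, without E11.5 libraries, because 1 read in control D is worth nearly 1. Exact permutation tests of the mean log2 difference were two-sided. Positions are from GENCODE vM21, and start windows from RefSeq, which held 9 of the 10 members. The members and lists were chosen with earlier results of these data known. Named were all members, up to 3 higher and 3 lower called genes per further list with the smallest p, and the 3 genes nearest to each member in within-group correlation.

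Alternatives were the pseudocount (0.1, 5), the filter (none, 50), quantile and TMM scaling, edgeR, DESeq2, an embryo block, litter, sex (read from transcripts), *Gm42418* and meninges terms, and leaving out each library. Cortex and cultures with the same number come from the same embryo per the labels, and deviations from group means correlated at -0.11 to 0.24 over 18 pairs of libraries, with a median of 0.14. The scripts were tested on simulated data with known changes. For genotype in E14.5 cortices, limma recovered 130 of 200 genes changed 2-fold, so differences of that size or smaller can go uncalled.

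One cortex (embryo 6) carries both ages in its labels and was taken as E14.5, as its title and source say. E11.5 mutants B and C carry 2 spellings of the sample code from which litter was read.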

Additional observations from a re-analysis of the deposited data

How the results depend on the processing

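Of 8 members lower and 2 higher with age, *Dlk1*, *Mest*, *H19*, *Grb10*, *Peg3*, *Igf2r* and *Ndn* kept their call in every alternative run. Numbers of genes called by limma in the genotype comparisons moved more. At E11.5 there were 2, and 17 with no filter, 1 with a mean of at least 50, 0 with quantile scaling, 0 with litter, 4 with sex and 10 with the meninges term. At E14.5 there were 10, and 31 with no filter, 64 with DESeq2 and 1 with sex. At 12 h there were 0, and 1 with a pseudocount of 5, 9 with no filter, 1 with quantile scaling, 9 with DESeq2, 182 with sex and 1 with the *Gm42418* term. At 24 h there were 36, and 140 with no filter, 182 with DESeq2, 4 with sex, 0 with the meninges term and 0 with the *Gm42418* term. In the 12 cortices there were 19, and 7 with sex and 11 with the meninges term. Members called rose from 0 to 1 at 24 h with no filter and with DESeq2, *Grb10* each time. From 12 h to 24 h, 39 genes were called, 160 with DESeq2 and 104 with the embryo block, and 1 member each (*Grb10*, *H19*). The block changed no other member's call. For the interaction with 12 h culture edgeR called 1, DESeq2 5 and the block 3. The causes were not tested.

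Signs turned for small differences. *Plagl1* at E14.5 gave -0.0259 with TMM, -0.0122 with edgeR, -0.0196 with DESeq2 and -0.31 with the meninges term, which also gave *Igf2r* 0.0412. At 12 h the sex term gave *H19* -0.31 and *Igf2r* 0.27, and the meninges term *Meg3* 0.18 and *Ndn* -0.36. At 24 h *Meg3* gave 0.0553 with quantile scaling and 0.15 with the meninges term, and *H19* -0.79 with the meninges and -0.24 with the *Gm42418* term. *Plagl1* in the 12 cortices gave 0.0447 with sex. The terms chosen after seeing the data were the meninges sum with age, which left 2483 genes called and *Meg3* at -0.0077, and the same sum for 12 h culture, which separates the stages fully and left 0 genes and 0 members called. There *Meg3* gave -0.56, *Peg3* -0.47, *Plagl1* 1.55, *Ndn* 0.36, *Mest* -0.51 and *Grb10* 0.85. Without cortices that carried liver transcripts 2391 genes were called for 12 h culture. *Ndn* was called there with quantile scaling (-0.34, adjusted p = 0.0450, limma).

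With 1 library left out, genes called ranged from 0 to 8 at E11.5, 1 to 74 at E14.5, 0 to 7 at 12 h, 7 to 46 at 24 h, 6 to 35 in the 12 cortices, 19 to 44 from 12 h to 24 h, and 0 to 1, 0 to 1 and 0 to 2 for the interactions with age, 12 h culture and 24 h. Members called at E14.5 ranged from 0 to 1. At E11.5 the ranges that crossed 0 were -0.33 to 0.32 for *Dlk1*, -0.57 to 0.01 (0.00666) for *Meg3*, -0.016 to 0.11 for *Peg3* and -0.18 to 0.20 for *Plagl1*. At E14.5 they were -0.11 to 0.13 for *Igf2r* and -0.29 to 0.36 for *Plagl1*, and at 12 h -0.024 to 0.47 for *H19*, -0.39 to 0.029 for *Igf2r* and -0.10 to 0.31 for *Ndn*. In the 12 cortices they were -0.017 to 0.30 for *Meg3* and -0.15 to 0.14 for *Plagl1*, and for 12 h culture -0.27 to 0.027 for *Plagl1*. For 12 h culture *Igf2r* (-0.45, adjusted p = 0.0213) and *Grb10* (-0.32, adjusted p = 0.0196) were called without 12 h mutant 6, and *Ndn* (-0.33, adjusted p = 0.0241) without 12 h control 5.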
